A study of Drosophila simulans and Drosophila kikkawai and Drosophila takahashii with 176 samples.

Results

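The accessory gland (AG) and the testis of *Drosophila eugracilis* were compared gene by gene over the 9 libraries of this species, 4 of them AG and 5 testis. The libraries were chosen by their species and organ labels, out of 93 libraries of 11 species, and all 16251 genes listed in the tables of both organs were matched by identifier. Of these, 14764 were above 0 in at least 1 library and were tested, and 1487 were listed at 0 in all 9. Each library was made from the organs of about 25 mixed-stage adult males, after poly(A) selection, with a directional paired-end protocol. AG replicates 1 and 2 and testis replicates 1, 2 and 3 came from the strain KB-iso11, whose genome was assembled as the reference of the species. AG replicates 3 and 4 and testis replicates 4 and 5 came from a second, non-reference strain, 451.2-iso1. The labels name no treatment. The pools are the replicates, so p-values measure the spread between pools of these 2 strains.

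The AG is a secretory organ that makes and stores most proteins of the seminal fluid, which is passed to the female with the sperm. The testis holds germ cells at every step from stem cell to sperm, together with somatic cells that enclose and nourish them. In Drosophila the testis transcribes an unusually broad set of genes, while a secretory gland puts much of its messenger RNA into a few products. In whole organs, fewer cells of a type and less RNA per cell cannot be told apart.

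Levels are the TPM values of the deposited tables, which scale transcript abundance by gene length and library size. Their totals over the listed genes were not 1000000. They were 986830, 1033448, 1489761 and 1649955 in AG replicates 1 to 4, and between 988596 and 1056206 in the 5 testis libraries. Both AG libraries of the non-reference strain thus had the highest totals, and the difference of the mean totals between the organs did not pass an exact permutation test (two-sided, p = 0.238). The Pearson correlation of log2(TPM + 1) over genes, which are not independent replicates, was 0.870 to 0.975 within the AG, 0.960 to 0.993 within the testis and 0.365 to 0.648 between the organs. The first principal component separated the organs and held 90.5% of the variance. The identifiers are numbered gene models, which nothing used here pairs with gene names, so the organ labels were not checked against markers such as sex peptide or protamine genes, and results are given by number, level and rank. The 9 libraries came from 3 sequencer models, with 2 from the HiSeq 4000 (AG replicate 1 and testis replicate 1), 2 from the HiSeq 2500 (AG replicate 2 and testis replicate 3) and the rest from the HiSeq 3000, so that each model was used in both organs.

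Transcripts of the AG were concentrated in very few genes. A single gene, the same one in every AG library, held 12.8%, 19.5%, 21.1% and 24.1% of the total in AG replicates 1 to 4. The highest gene of the testis, also the same in every testis library but a different gene from that of the AG, held 5.53%, 9.82%, 10.5%, 3.17% and 6.02% in testis replicates 1 to 5. No AG library fell within the range of the testis libraries. The mean share was 19.4% ± 4.78 in the AG (SD, n = 4) and 7.01% ± 3.09 in the testis (SD, n = 5). With 4 against 5 libraries the smallest p that the two-sided exact permutation test allows is 0.0159, and this share reached it (0.0181 after adjustment over 8 measures of the libraries).

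The 10 highest genes of each library held 34.9%, 44.7%, 43.5% and 46.5% of the total in AG replicates 1 to 4, against 10.4%, 14.9%, 15.5%, 8.12% and 10.9% in testis replicates 1 to 5. The lowest AG library was thus above the highest testis library, and the means differed by 30.4 percentage points (exact permutation p = 0.0159, adjusted p = 0.0181). The share in the 100 highest genes was 68.2% ± 4.01 in the AG (SD, n = 4) and 31.5% ± 3.07 in the testis (SD, n = 5; exact permutation p = 0.0159). To reach 50% of the total, 35, 16, 17 and 14 genes were enough in AG replicates 1 to 4, whereas 336 to 476 were needed in the testis libraries. AG replicate 1 stood apart from the other AG libraries with its flatter distribution. The plot of cumulative shares shows this as a curve that runs below those of the other AG libraries over the 3000 most abundant genes.

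**Figure D1:**
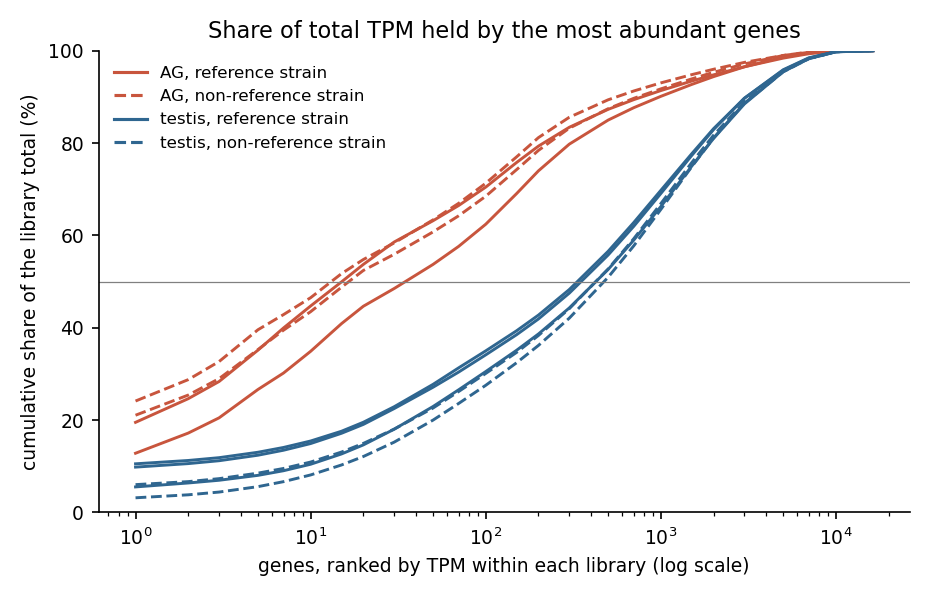
Cumulative share of the library total (vertical axis, %) against the number of genes counted from the most abundant down (horizontal axis, log scale), 1 line per library, with AG libraries in red, testis libraries in blue and the non-reference strain dashed. AG lines reach 50% after 14 to 35 genes and testis lines after 336 to 476.

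The gene with the highest mean in the AG was listed at 126527, 201659, 313687 and 398143 TPM in AG replicates 1 to 4, against 53.6, 966, 2576, 339 and 598 TPM in testis replicates 1 to 5. The organs did not overlap, and its log2 fold change, AG over testis, was 8.93 with a standard error (SE) of 1.12 (limma, adjusted p = 7.16e-05). The higher AG values were those of the non-reference strain, but the difference between the strains within the AG did not pass the test (log2 difference, reference minus non-reference, of -1.15, limma adjusted p = 0.719). Its highest testis value was 48.0 times its lowest, so its level in the testis is not well determined. The other 9 of the 10 genes of highest AG mean had AG means of 16354 to 50719 TPM and testis means of 16.5 to 137 TPM. Every one of the 10 was higher in each AG library than in any testis library.

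The gene with the highest mean in the testis was also abundant in the AG. It was listed at 1612, 5435, 5196 and 2789 TPM in AG replicates 1 to 4, against 58369, 97048, 104509, 33455 and 61630 TPM in testis replicates 1 to 5. Its log2 fold change was -4.29 (SE 1.01, limma adjusted p = 0.00439), smaller in size than those of 8 of the next 9 testis genes, which lay between -6.70 and -7.11. The other of these 9, the 7th by testis mean, was at 392 to 791 TPM in AG libraries and at 3552 to 7151 TPM in testis libraries, a log2 fold change of -3.03 (adjusted p = 5.78e-05). The first and second means were 260004 and 50719 TPM in the AG, a ratio of 5.13, and those of the testis were 71002 and 6450 TPM, a ratio of 11.0. Of the 10 highest genes of each library, 4 were shared by all AG libraries, 4 others by all testis libraries and none by all 9.

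Most genes differed between the organs. Of the 14764 genes tested, 9510 were called at an adjusted p below 0.05 by limma on log2(TPM + 1), which is 64.4% of the genes tested. Of these, 2363 were higher and 7147 were lower in the AG. At 2-fold or more on this scale, 1745 were higher in the AG (11.8% of the genes tested) and 5649 lower (38.3%). The AG and testis libraries did not overlap at 1879 genes higher in the AG (12.7% of the genes tested) and 6750 lower (45.7%). The direction of the majority depended on the scaling. Genes higher in the AG made up 24.8% of the calls with the values as deposited, 20.7% after each library was rescaled to 1000000, 35.4% after scaling by the median ratio over genes and 55.0% after quantile normalization, which called 438 genes in the opposite direction. The median log2 fold change over all genes tested was -0.48, -0.63, -0.22 and 0.08 under these 4 scalings, and the counts of genes lower in the AG are to be read against that shift.

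**Figure D2:**
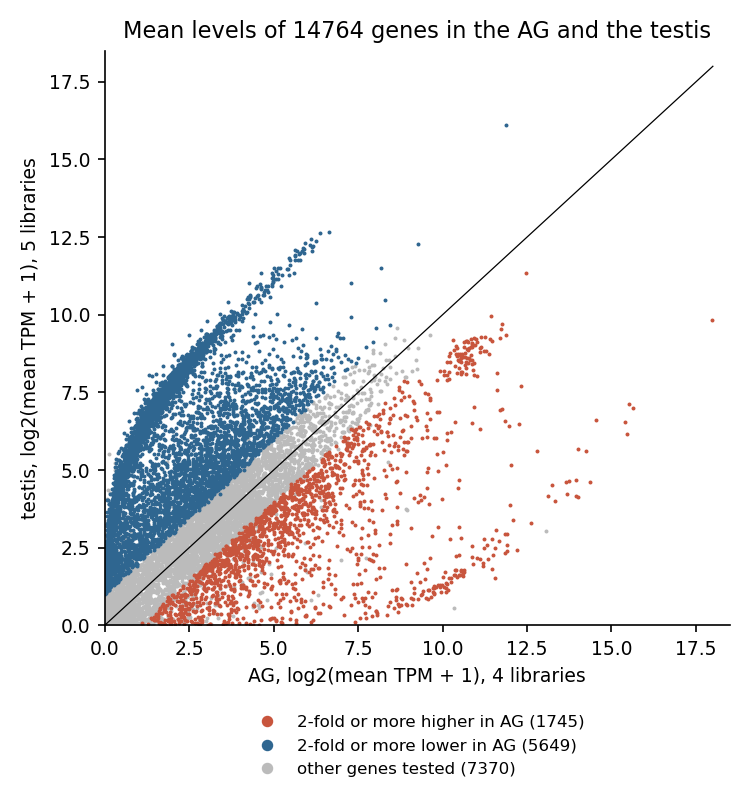
Mean level of each of the 14764 genes tested in the AG (horizontal axis, log2 of the mean TPM of 4 libraries plus 1) and in the testis (vertical axis, the same over 5 libraries), with the line of equal levels. The 1745 genes called 2-fold or more higher in the AG are red, the 5649 called 2-fold or more lower are blue, and the other genes are grey.

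With the values as deposited, fewer genes were higher in the AG, but their differences reached further. At 256-fold or more, 104 genes were called higher in the AG, and no gene tested, called by limma or not, was lower by as much. That absence depended on the libraries and the pseudocount. The log2 fold change of deug_gene9983 ran from -8.55 to -6.28 over 21 alternatives. It was beyond 256-fold lower without AG replicate 2 (-8.09). Between 64-fold and 256-fold, 61 genes were higher and 688 lower in the AG. From 16-fold to 64-fold the counts were 135 higher and 1293 lower, and from 2-fold to 4-fold they were 927 higher and 1893 lower. The log2 fold changes ran from -7.43 to 10.50. Genes called 2-fold or more higher in the AG had mean levels whose median over genes was 40.1 TPM in AG libraries and 5.37 TPM in testis libraries. For those called 2-fold or more lower these medians were 2.73 TPM in AG libraries and 39.8 TPM in testis libraries. These medians describe genes that the test itself picked.

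With the values as deposited, the genes called 2-fold or more higher or lower accounted for most of the total TPM of each library. Genes called 2-fold or more higher in the AG held 87.4%, 87.4%, 88.4% and 90.0% of the total in AG replicates 1 to 4, and between 5.75% and 7.14% in the testis libraries. Genes called 2-fold or more lower held 2.94% to 5.56% of the total in the AG libraries and 84.4% to 85.6% in the testis libraries. The remaining 7370 genes held 7.00% to 8.40% of an AG library and 8.13% to 8.75% of a testis library. These shares describe genes sorted by the same test.

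The genes with the largest difference in each direction show what the extremes look like. deug_gene2793 had 17499, 10571, 18804 and 18544 TPM in AG replicates 1 to 4, against 2.69, 6.97, 49.3, 19.2 and 4.31 TPM in testis replicates 1 to 5. The log2 fold change was 10.50 (SE 0.71, limma adjusted p = 1.23e-06), the largest of the genes whose organs did not overlap, and the gene was also the 10th in AG mean. deug_gene4872 had 2813, 1718, 3964 and 3536 TPM in AG replicates 1 to 4, against 0.255, 0.595, 4.51, 3.07 and 0.811 TPM in testis replicates 1 to 5, a log2 fold change of 10.22 (adjusted p = 2.61e-07). For both genes AG replicate 2 was the lowest AG library and testis replicate 3 the highest testis library.

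In the other direction, deug_gene9983 had 2.33, 13.9, 0.700 and 1.44 TPM in AG replicates 1 to 4, against 568, 627, 567, 703 and 824 TPM in testis replicates 1 to 5. The log2 fold change was -7.43 (limma adjusted p = 1.99e-06). deug_gene15076 had 11.2, 48.5, 2.58 and 11.7 TPM in AG replicates 1 to 4, against 1290, 1925, 2031, 2552 and 2617 TPM in testis replicates 1 to 5, a log2 fold change of -7.30 (adjusted p = 5.59e-06). At both genes AG replicate 2 was by far the highest AG library and AG replicate 3 the lowest. At none of deug_gene2793, deug_gene4872, deug_gene9983 and deug_gene15076 did a difference between the strains in the organ difference pass the test (limma, adjusted p of 0.831, 0.777, 0.202 and 0.237).

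That order of the AG libraries held across the testis genes. The 100 genes of highest mean in the testis were set in each AG library against their own testis mean. In AG replicate 1 the median gene stood at 0.763% of its testis level, with quartiles of 0.679% and 0.861%. The median was 3.57% in AG replicate 2 (quartiles 3.19% and 4.07%), 0.168% in AG replicate 3 (quartiles 0.144% and 0.218%) and 0.903% in AG replicate 4 (quartiles 0.799% and 1.07%). The middle 50% of these genes thus lay within a narrow range in each AG library, and the highest of these 4 medians was 21.3 times the lowest. Single genes lay far outside that range. The 10 genes of highest testis mean reached up to 15.9% in AG replicate 3. Of all 100, 1 gene was called 2-fold or more higher in the AG. Whether these levels reflect testis RNA carried into the AG pools or transcription in the AG was not tested. Without AG replicate 2, 9663 genes were called between the organs, 2821 higher and 6842 lower in the AG.

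The share of listed genes at 1 TPM or more followed the same order in the AG. It was 54.2%, 59.4%, 51.7% and 57.1% in AG replicates 1 to 4, lowest in replicate 3 and highest in replicate 2, against 67.2%, 66.0%, 66.4%, 67.7% and 67.4% in testis replicates 1 to 5. The AG libraries lay below all testis libraries, and the means differed by -11.3 percentage points (exact permutation p = 0.0159, adjusted p = 0.0181). Genes listed at 0 made up 20.5% ± 1.03 of an AG library (SD, n = 4) and 13.8% ± 1.32 of a testis library (SD, n = 5; exact permutation p = 0.0159). The read depth behind these shares is unknown from the tables, and its part in them was not tested.

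The abundant AG genes behaved differently in the testis. Of the 100 genes of highest mean in the AG, 48 had a testis mean under 1% of their AG mean, 8 were between 1% and 5%, 3 between 5% and 10%, and 41 at 10% or more. The 48 had AG means of 1862 to 260004 TPM, and the 10 most abundant genes were all among them. The median testis level of those 10 genes was 0.0175%, 0.356%, 0.588%, 0.121% and 0.156% of their AG mean in testis replicates 1 to 5, with testis replicate 1 the lowest and the highest 33.7 times as high. Over all 100 genes the quartiles in a testis library lay far apart, at 0.0246% and 24.5% in testis replicate 1 for example. Of the 100 genes of highest mean in the testis, only 3 stood at 10% or more of their testis mean in the AG mean, and 90 were between 1% and 5%. The AG mean took in AG replicate 2, where the median gene stood at 3.57%, against 0.168% to 0.903% in the other AG libraries. In the scatter of mean levels the 90 genes form a band parallel to the line of equal levels, which their choice by that ratio fixes.

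**Figure D3:**
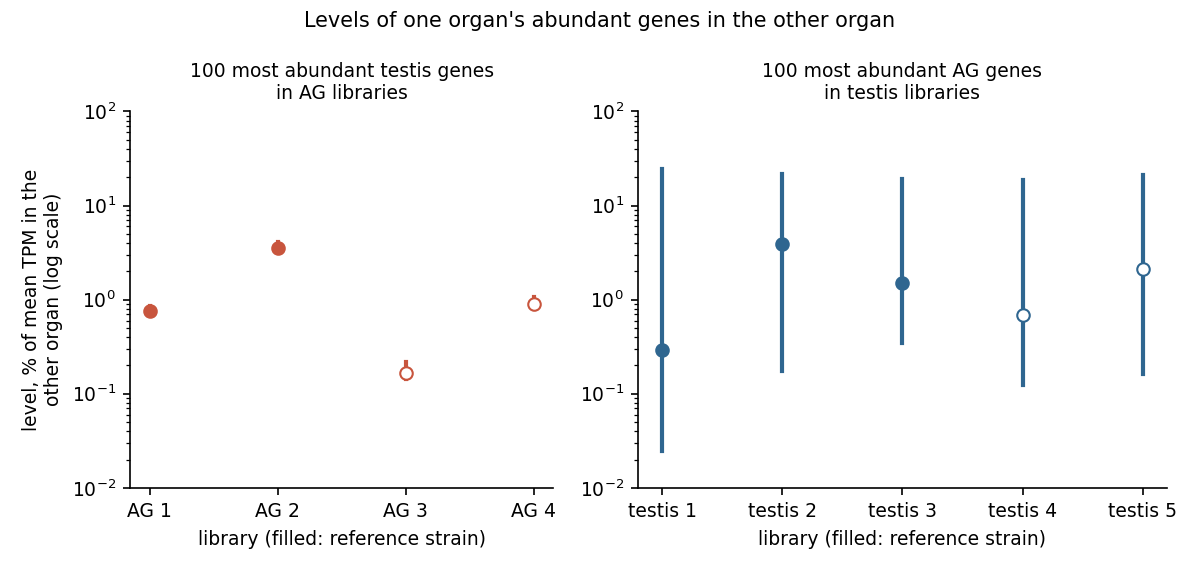
Level of the 100 most abundant testis genes in each AG library (left, red) and of the 100 most abundant AG genes in each testis library (right, blue), as a percentage of the gene's mean TPM in the organ where it is abundant (vertical axes, log scale). Points are medians over the 100 genes and bars run from the lower to the upper quartile. AG medians run between 0.168% and 3.57% with short bars, and testis medians between 0.293% and 3.94% with long bars.

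Few genes were restricted to 1 organ. A level of 10 TPM or more in every library of one organ and under 0.1 TPM in every library of the other was met by 1 gene in the AG and by 0 genes in the testis. The 1 AG gene had 14.6, 13.1, 31.7 and 30.6 TPM in AG replicates 1 to 4, against 0 TPM in 4 testis libraries and 0.0751 TPM in testis replicate 3. Without AG replicate 2, the library with the highest level of testis genes, 3 genes met the rule for the testis. When the upper limit in the other organ was set at 1 TPM, 49 genes met it for the AG and 170 for the testis.

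Most genes seen in the AG were seen in the testis too. At 1 TPM or more in every library were 7445 AG genes and 9968 testis genes, and 6868 of these were the same genes. Another 170 genes were at 1 TPM or more in all AG libraries and below it in all testis libraries, against 943 with the opposite pattern. Among the 6868 genes of both organs, 1237 were called 2-fold or more higher and 2586 2-fold or more lower in the AG, while 2097 were not called.

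Of the 14764 genes tested, 12280 had an organ difference of the same sign in the reference and the non-reference strain. Among the 9510 genes called it was 9503, a count that the call nearly fixes, since both strains entered the fit that made it. In libraries of the reference strain alone, 8743 genes were called, and in those of the non-reference strain alone, 9916. The median absolute log2 difference over genes was 1.07 between the organs, 0.39 between the strains in the AG and 0.24 between the strains in the testis. Between the strains, 585 genes were called in the AG (3.96% of the genes tested) and 1340 in the testis (9.08%), of which 190 AG and 515 testis calls were higher in the reference strain. Both counts came from a fit that took the spread between libraries as equal in the 2 organs. Each count therefore rests on libraries of the other organ too. The split in the AG turned with the scaling, as 32.5% of the AG calls were higher in the reference strain with the values as deposited, 61.2% after rescaling to 1000000 and 56.5% after median-ratio scaling, 2 alternatives chosen after seeing the data. In the testis the same shares were 38.4%, 40.2% and 39.4%. Strain and sequencer model cannot be told apart within the AG, where both reference libraries came from the HiSeq 4000 and 2500 and both non-reference libraries from the HiSeq 3000. With the model added as a term, which takes its effect to be the same in both organs, 59 genes were called between the strains in the AG and 704 in the testis. Within the HiSeq 3000 the testis held 1 reference library, replicate 2, to set against replicates 4 and 5. That fit assumed the lone library to vary like the others, AG replicates 3 and 4 among them, so no conclusion is drawn from its count. These alternatives were chosen after seeing the data. In the fit without the model, 118 genes were called in both organs, 20.2% of the AG calls and 8.81% of the testis calls.

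The organ difference itself differed between the strains at 959 genes (limma, interaction of organ and strain, adjusted p below 0.05, 6.5% of the genes tested). The difference, AG over testis, was more positive in the reference strain at 498 of them and less so at 461, a positive share of 51.9% that became 66.5% after rescaling and 65.0% after median-ratio scaling. At 614 of the 959 the strains were called different in the testis but not in the AG, at 258 in the AG but not in the testis, at 45 in both and at 42 in neither. At 287 the estimated organ difference had opposite signs in the strains, some of them near 0 on one side, and the differences within a strain were not tested. Some of the 959 genes were at 0 TPM in every AG library, so their interaction restates a strain difference in the testis. One is deug_gene2, with 0.0971, 0.0848 and 0.0267 TPM in the reference testis libraries and 2.16 and 1.27 TPM in the non-reference ones (limma, interaction adjusted p = 0.00594). How many genes were of this kind was not counted. With the sequencer model as a term 764 genes were called, 667 of them among the 959. These counts rest on 2 or 3 libraries per strain and organ, and 1 library moved them most. Without AG replicate 1, 1797 genes were called for the interaction and 2911 between the strains in the AG, and without AG replicate 3 the counts were 576 and 278. The median SD between libraries of 1 strain, on the log2 scale, was 0.38 for the reference AG and 0.18 for the non-reference AG, and 0.26 for the reference testis and 0.14 for the non-reference testis.

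A small group of genes was seen in 1 strain of an organ and not in the other strain. At 10 TPM or more in every library of one strain and under 0.1 TPM in every library of the other were 4 genes in the AG, 2 for each strain, and 7 in the testis, 1 for the reference strain and 6 for the non-reference strain. None of them met this in both organs. One AG gene had 0.0323 and 0.0258 TPM in the reference AG libraries, 26.5 and 25.7 TPM in the non-reference AG libraries, and 0 TPM in all 3 reference testis libraries. Its testis levels in the non-reference strain were 0.460 and 0.702 TPM, so the same strain had the higher level in both organs. Another AG gene showed no such pattern, with 17.2 and 19.3 TPM in the reference AG libraries, 0 and 0.0738 TPM in the non-reference AG libraries, and 0.773 to 1.24 TPM in all 5 testis libraries. The strongest of the testis genes had 0, 0.0496 and 0 TPM in the reference testis libraries, against 30.4 and 48.1 TPM in the non-reference testis libraries, and reached 0.209 TPM in 1 AG library, AG replicate 4. As reads of both strains were aligned to the genome of the reference strain, a sequence difference and a difference in expression cannot be told apart for a gene at or near 0 TPM in both organs of the non-reference strain. Both AG genes of the reference strain stood at 0.847 to 0.985 TPM in the non-reference testis libraries. Whether sequence or expression differs was not tested for them.

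**Figure D4:**
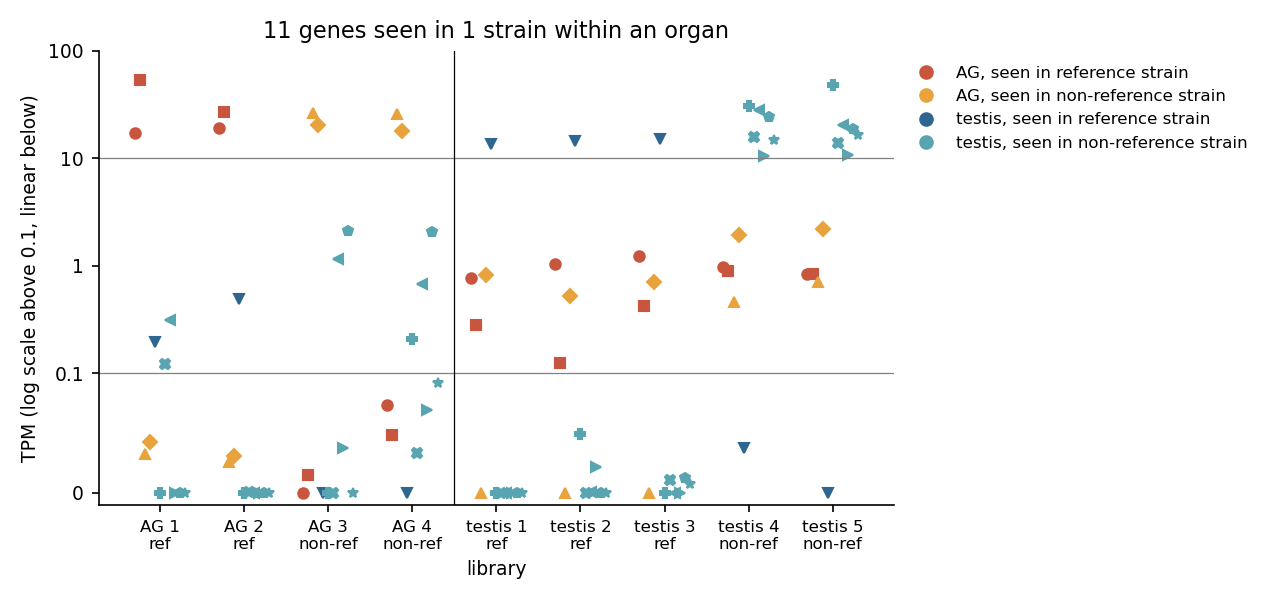
TPM (vertical axis, logarithmic above 0.1 and linear below) in the 9 libraries (horizontal axis, AG left of testis, with the strain under each name) of the 11 genes seen in 1 strain within an organ, coloured by organ and strain, with 1 symbol per gene. Grey lines mark the limits of 10 and 0.1 TPM. Genes picked in one organ reached at most 2.23 TPM in the other.

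Set beside the other 10 species, *D. eugracilis* had the highest mean share of the total in its highest gene and in its 10 highest genes in both organs, as a description of 1 species with no test. The mean share of the highest gene in AG libraries was 19.4% in *D. eugracilis* and 5.75% (*D. kikkawai*) to 14.9% (*D. elegans*) in the other species. In testis libraries it was 7.01% in *D. eugracilis* and 1.92% to 5.14% in the others. Single libraries overlapped between species. Of the 43 AG libraries of other species, 0 exceeded the highest *D. eugracilis* library (24.1%) and 6 exceeded the lowest (12.8%). Of the 41 testis libraries of other species, 21 exceeded the lowest *D. eugracilis* testis library (3.17%). The 10 highest AG genes held 42.4% in *D. eugracilis* and at most 41.2% in another species (*D. bipectinata*), and 3 of the 43 AG libraries of other species exceeded the highest of *D. eugracilis* (46.5%).

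**Figure D5:**
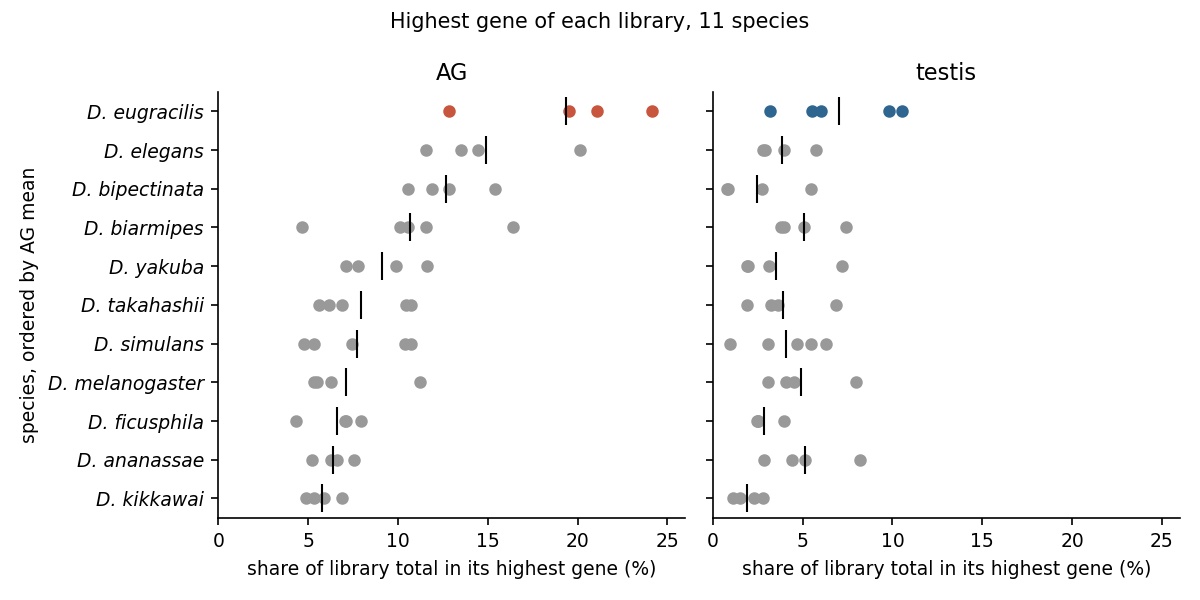
Share of each library's total held by its highest gene (horizontal axes, %) in AG libraries (left) and testis libraries (right) of 11 species, ordered by their AG mean. Points are libraries, coloured for *D. eugracilis* and grey for the others, and black bars are species means. The *D. eugracilis* means of 19.4% and 7.01% are the highest in their organs.

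The counts of calls were less unusual. *D. eugracilis* ranked 4th of 11 in the share of genes called between the organs, which was 64.4% in *D. eugracilis* and 53.1% to 67.1% in the others. It ranked 2nd in the share called 2-fold or more higher in the AG (11.8%, against 7.21% to 11.97%) and 6th in the share called 2-fold or more lower (38.3%, against 34.9% to 43.5%). The share of listed genes at 1 TPM or more was the 2nd highest in the AG (55.6%) and the 10th in the testis (66.9%). Species differ in their annotation and in the number of genes listed, and the part of either in these ranks was not tested.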

How the data were processed

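The values are the authors' TPM per gene and library, deposited as 1 table per organ and read here as a signal, since the totals are not 1000000. The authors trimmed reads with Trimmomatic, aligned them with STAR 2.5.3 to the Deug_2.0 assembly and quantified transcripts of the annotation alone with StringTie (version 1.3.4 in the submitters' processing notes, another version in the paper's methods). How transcripts were summed to genes is not given in the sources used here. The 15 sequencing runs belong to 9 libraries, and each library was 1 replicate. Read depth is unknown from the tables, so no counting interval is given, and 0 per-sample columns were left out.

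Genes were tested with limma 3.58.1 in R 4.3.3 (mean-variance trend, two-sided, Benjamini-Hochberg over all 14764 genes) on log2(TPM + 1), which understates the change of low genes. Strain differences and the interaction came from a fit of 4 cells of organ and strain. Library measures were tested by two-sided exact permutation in scipy 1.17, with adjustment over 8 measures. The genes named were the 2 with the largest fold change in each direction among called genes whose organs did not overlap. The libraries, tests and lists were chosen with earlier results of these data known. Lists of marker, seminal fluid and spermatogenesis genes written with D. melanogaster symbols could not be applied, because no table used here pairs the identifiers with names. The alternatives covered pseudocounts of 0.1 and 5 TPM, a filter at 1 TPM in 4 libraries, 3 other scalings, strain or platform as a term, single strains, libraries without the HiSeq 2500, no trend and each library left out.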

Additional observations from a re-analysis of the deposited data

Results flagged for a closer look

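AG replicate 1 lay far from the other AG libraries in how many genes reached 50% of its total, with 35 genes against 14 to 17 in the others. AG replicate 2 lay far from the other AG libraries at deug_gene2793, where it was lowest with 10571 TPM against 17499 to 18804 TPM, and at deug_gene9983, where it was highest with 13.9 TPM against 0.700 to 2.33 TPM. AG replicate 2 was also the AG library with the highest level of the 100 abundant testis genes (3.57% of their testis level) and 1 of 2 libraries from the HiSeq 2500. The part of either in these values was not tested. These are 3 far values among 30 groups of libraries examined, where the nominal rate by chance is about 1 in 20. The groups share libraries and include genes picked for their large differences, so that rate cannot be applied to them.

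The organ difference differed between the strains at 959 genes by the interaction test.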

How the results depend on the processing

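No paired analysis was run, because the AG and testis libraries share no replicate numbers in their labels. The count of genes called between the organs stayed within 1.5 times 9510 under all 21 alternatives (8865 to 9663 with each library left out), and the 4 named genes kept their direction and their call under all 21. Quantile normalization changed the counts at 2-fold or more to 4156 higher and 3454 lower in the AG, against 1604 to 2062 higher and 5421 to 5746 lower with each library left out. Genes restricted to the AG numbered 3 at 5 TPM or more against under 0.1 TPM, 49 at 10 TPM or more against under 1 TPM, and 1 to 3 with each library left out. For the testis they numbered 170 at 10 TPM or more against under 1 TPM, and 0 to 3 with each library left out. The interaction gave 593 genes with a pseudocount of 0.1 TPM and 576 (without AG replicate 3) to 1797 (without AG replicate 1) with each library left out. Strain calls in the AG numbered 342 without the HiSeq 2500 libraries, an alternative chosen after seeing the data, and 278 (without AG replicate 3) to 2911 (without AG replicate 1) with each library left out, with 332 without AG replicate 4, 371 without testis replicate 4 and 374 without testis replicate 5. With the sequencer model as a term, also chosen after seeing the data, they numbered 59 in the AG and 704 in the testis, and 851 in the testis within the HiSeq 3000. In the testis they otherwise numbered 863 (without testis replicate 4) to 1453 (without AG replicate 1). The causes of these changes were not tested. The count within the HiSeq 3000 rests on 1 reference testis library, assumed to vary like the others. No conclusion is drawn from that count. The difference in the share of the 10 highest genes and in the share of genes at 1 TPM or more kept its sign under all alternatives run. The exact permutation p of 0.0286 to 0.0357 with a library left out are the smallest those designs allow and say nothing of stability. Low levels are limited by the unknown depth, and an exact 0 can be a gene not reached by it.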

Other observations

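Genes with like differences often had neighbouring identifier numbers. The identifiers run from 0 to 16250 with none missing, and the sources used here do not say what their order stands for. Of the 300 genes called 16-fold or more higher in the AG, 122 (40.7%) had the next lower or next higher number in the same set, against 2.96% of the other genes tested. The longest run held 7 consecutive numbers. Of the 1981 genes called 16-fold or more lower in the AG, 919 (46.4%) had such a neighbour, against 19.8% of the other genes tested, and the longest run held 12. For the 100 most abundant AG genes the share was 27.0%, against 1.12% of the other genes tested, and for the 100 most abundant testis genes it was 30.0%, against 1.08%. These shares are a description chosen after seeing the data. Gene models that overlap or resemble each other can share reads, and their part in these shares was not tested.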
